A study of Mus musculus with 20 samples.

Results

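The genes followed here write, bind or direct methylation of histone H3 at lysine 9 (H3K9): Cbx1, Cbx3 and Cbx5, which encode the HP1 proteins, and Suv39h1, Suv39h2, Setdb1, Ehmt1, Ehmt2 and Trim28. They were chosen by gene symbol, as 9 of 27998 genes listed in the single-cell RNA-seq (scRNA-seq) libraries and 9 of 24062 listed in the RNA-seq libraries. All 9 were detected in both. The scRNA-seq data come from Nestin-EGFP+ cells sorted from the dentate gyrus (DG) of C57BL/6 mice that carry EGFP under Nestin regulatory sequences, on postnatal day 5 (P5), in week 12 (12w) and in week 24 (24w), each age being 1 library with no treatment. The RNA-seq data come from mouse neural stem cells (NSCs) in culture, derived from embryonic cortex and passaged many times, although the labels name hippocampus as the tissue. All of these cells received lentivirus and puromycin, with either a control construct (Ctrl) or a short hairpin RNA for knockdown of Setd8 (Setd8KD). They were collected 3 days after infection. Setd8 encodes the enzyme that monomethylates histone H4 at lysine 20. Single-cell ATAC-seq (scATAC-seq) peak lists of sorted cells, 1 per age, were read at the promoters of these genes.

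H3K9 di- and trimethylation mark silent chromatin. Suv39h1 and Suv39h2 place trimethylation at pericentric repeats, Setdb1 places it at retroviral elements and some genes where the corepressor Trim28 (KAP1) brings it with KRAB zinc finger proteins, and the partner enzymes Ehmt1 (GLP) and Ehmt2 (G9a) place mono- and dimethylation in gene-rich chromatin. HP1 proteins bind the methylated lysine with their chromodomain. Cbx5 (HP1α) and Cbx1 (HP1β) are concentrated in heterochromatin, while Cbx3 (HP1γ) is also found along transcribed genes.

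The promoters of these genes lay in open chromatin at every age, in peak lists that pool all sorted cells of an age. RefSeq lists 13 start sites for the 9 genes in the GRCm38.p6 (mm10) assembly, and each lay inside a scATAC-seq peak in all 3 age groups. Of all 32619 RefSeq start sites, the share inside a peak was 54.3% (P5), 56.3% (12w) and 54.0% (24w). The promoters of 4 of the genes that differed with age, cell cycle or knockdown are shown. Each line holds 300 bases, of which the last 50 follow the start site, 5′ to 3′ on the strand of the gene. Capitals mark the letters found in a search of both strands for 3 kinds of element named for cell cycle promoters, which do not overlap here: E2F sites (TTTCCCGC, TTTGGCGC or TTTCGCGC), the cell cycle homology region (TTTGAA) and CCAAT boxes (CCAAT, or ATTGG on the strand shown).
Cbx3, chr6:51470366-51470665, plus strand: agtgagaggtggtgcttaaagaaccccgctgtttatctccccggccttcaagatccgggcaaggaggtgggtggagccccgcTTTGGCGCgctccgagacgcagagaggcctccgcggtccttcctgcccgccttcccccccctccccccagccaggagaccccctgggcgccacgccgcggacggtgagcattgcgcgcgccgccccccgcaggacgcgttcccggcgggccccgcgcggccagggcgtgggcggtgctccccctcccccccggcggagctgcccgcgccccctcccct
Cbx5, chr15:103239803-103240102, minus strand: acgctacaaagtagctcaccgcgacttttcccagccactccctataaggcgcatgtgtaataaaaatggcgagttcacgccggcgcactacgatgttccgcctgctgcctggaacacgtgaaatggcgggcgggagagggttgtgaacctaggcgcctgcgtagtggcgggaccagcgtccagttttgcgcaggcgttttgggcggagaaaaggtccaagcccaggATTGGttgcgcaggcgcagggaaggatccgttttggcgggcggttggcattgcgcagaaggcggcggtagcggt
Suv39h1, chrX:8074711-8075010, minus strand: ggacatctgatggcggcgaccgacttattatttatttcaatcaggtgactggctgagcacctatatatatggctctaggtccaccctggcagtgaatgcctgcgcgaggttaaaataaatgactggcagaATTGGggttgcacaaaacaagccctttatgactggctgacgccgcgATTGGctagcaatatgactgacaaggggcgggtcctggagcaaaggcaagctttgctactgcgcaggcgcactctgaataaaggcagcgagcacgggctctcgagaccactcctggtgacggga
Suv39h2, chr2:3474937-3475236, minus strand: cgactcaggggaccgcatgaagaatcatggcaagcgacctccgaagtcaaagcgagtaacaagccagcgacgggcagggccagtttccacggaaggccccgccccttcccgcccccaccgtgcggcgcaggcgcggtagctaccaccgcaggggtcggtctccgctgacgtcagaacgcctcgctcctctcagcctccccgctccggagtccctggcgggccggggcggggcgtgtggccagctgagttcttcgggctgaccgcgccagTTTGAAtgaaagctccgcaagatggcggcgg
Letters of the 3 E2F forms searched for were found in the Cbx3 promoter alone among the 13, starting 168 bases before the start site. They were found in 1.86% of the 32619 promoters. Other forms of the E2F site were not searched for. TTTGAA was found 19 bases after the Suv39h2 start site, and in 17.6% of all promoters. CCAAT boxes were found in the promoters of Cbx5 (1 match), Suv39h1 (2 matches) and Setdb1 (1 match), and in 37.6% of all promoters. The 4 promoters shown each hold a match. Cbx3, Cbx5 and Suv39h1 each have another start site, whose window is not shown and holds none. The promoters of Cbx1, Ehmt1, Ehmt2 and Trim28 hold none, although Cbx1 and Trim28 also differed with knockdown. The promoters shown therefore do not stand for all genes that differed. These matches describe the letters in the window and are no evidence of binding. The GC content was 75.3% in the Cbx3 window and 53.0% in the Suv39h1 window, against a median of 53% over all promoters. Cbx3 and Hnrnpa2b1 start 722 bases apart on opposite strands, and Cbx5 and Hnrnpa1 start 545 bases apart on opposite strands.

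In the scRNA-seq data, the P5 library gave 12932 cells, the 12w library 5266 and the 24w library 2795, and the median cell held 4292, 2269 and 2178 unique molecular identifiers (UMIs, each 1 captured RNA molecule). Clusters were named from marker genes as NSC-like (NSC), astrocyte-like (AS), neural progenitor-like (NPC), early and late immature neuron-like (IMN1, IMN2), oligodendrocyte precursor-like (OPC), pericyte-like (PC), smooth muscle-like (VSMC) and interneuron-like (IN) cells, among others, so the sort was not of neural cells alone. Levels are CPM, the UMIs of a gene scaled to the total UMIs of its class, given with exact 95% Poisson intervals, and ratios have exact 95% binomial intervals. Both cover counting error only. No test between ages was possible with 1 library per age. CPM from 3′ counts were compared between cells and not between genes. The libraries were also unlike in sex: male and female cells were both found at P5, while 92.4% of cells at 12w held Xist without a Y-linked UMI and Xist was nearly missing at 24w.

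At P5, 7 of the 9 genes had their highest level among the 5 neural classes in NPC-like cells, which the naming markers make the proliferating class. The exceptions were Ehmt1, highest in IMN2-like cells, and Setdb1, highest in NSC-like cells. For Trim28 and Ehmt2 the lead of NPC-like over IMN1-like cells, 1.08-fold (0.97 to 1.2) and 1.04-fold (0.85 to 1.28), held equality in its interval. The difference between NPC-like and NSC-like cells was largest for Suv39h2 (5.10-fold, interval 3.74 to 7.11), followed by Trim28 (2.66-fold, 2.39 to 2.95) and Suv39h1 (2.45-fold, 1.91 to 3.17). The HP1 genes differed less, by 1.77-fold for Cbx1 (1.64 to 1.91), 1.64-fold for Cbx3 (1.53 to 1.76) and 1.52-fold for Cbx5 (1.40 to 1.66). Ehmt1 and Ehmt2 were 1.35-fold (1.14 to 1.61) and 1.40-fold (1.19 to 1.66) higher in NPC-like cells, and Setdb1 stood at 0.94-fold (0.74 to 1.19), an interval that holds equality. In the 12w library, NPC-like levels were higher than NSC-like levels for all 9 genes, with intervals above 1. The shares of all genes with these orders of classes were not read, so these counts are not shown to be particular to the 9 genes.

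**Figure D1:**
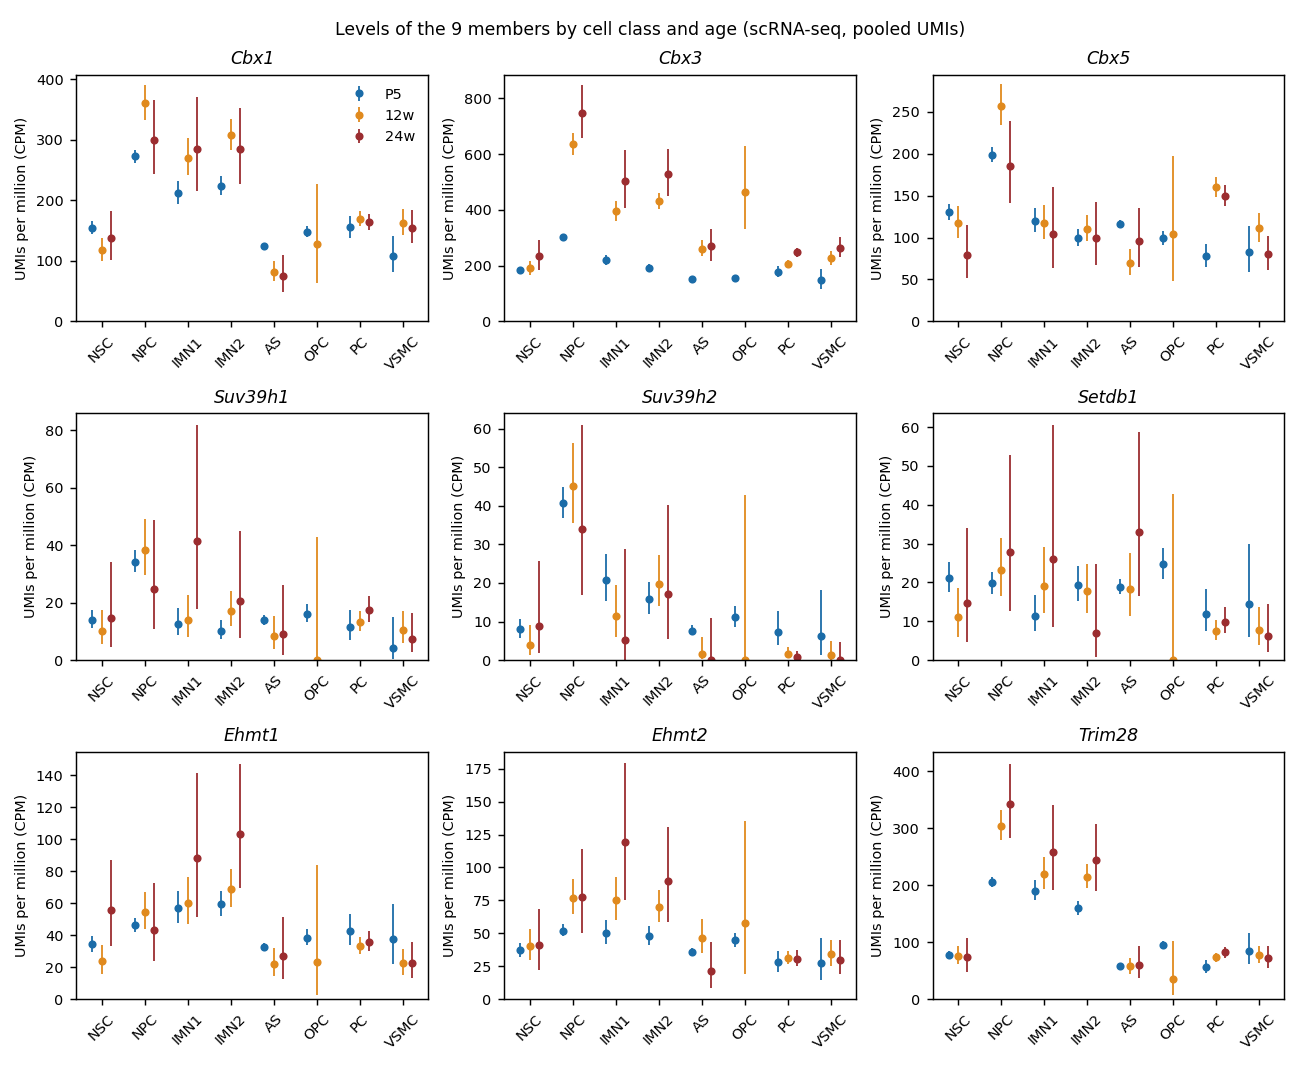
Level of each gene in CPM (linear axis from 0, scaled per gene) in each cell class, with 1 point per age (P5, 12w, 24w) and bars for exact 95% Poisson intervals that cover counting error only. NPC-like cells are highest among the neural classes at P5 for 7 of the 9 genes, and the share of all genes highest there was not read. The adult points of Cbx3 lie above P5 in each of the 5 neural classes.

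Among the HP1 genes, Cbx3 had 183 CPM (172 to 195) in NSC-like, 301 CPM (290 to 312) in NPC-like, 220 CPM (201 to 240) in IMN1-like, 191 CPM (178 to 206) in IMN2-like and 151 CPM (145 to 156) in AS-like cells at P5. Among the groups with 50 or more cells, NPC-like cells stood above the others, whose neighbours in the order were not parted. The 43 IN-like cells at P5 were higher, at 439.8 CPM (360 to 531). In NPC-like cells its level was 301 CPM at P5, 635 CPM (598 to 674) at 12w and 748 CPM (657 to 849) in the 43 cells at 24w, or 2.11-fold (1.96 to 2.26) and 2.49-fold (2.17 to 2.84) of P5. In IMN2-like cells it was 191 CPM, 431 CPM (401 to 462) and 529 CPM (449 to 619), or 2.25-fold (2.03 to 2.49) and 2.77-fold (2.31 to 3.29). Among all 9 genes and 5 neural classes, these 2 were the calls of a rule that asks for a 2-fold difference of 1 sign at both adult ages and 20 UMIs where higher. Over all genes, the same rule called 1.48% of 11556 genes higher in NPC-like and 1.55% of 9983 in IMN2-like cells. With P5 cells of like sex, the log2 ratio in NPC-like cells at 12w went from 1.08 to 0.91, under 2-fold, and scaling to the median over genes, which was 0.11, brought it to 0.96. The call in IMN2-like cells held in both. The clusters that make up a class changed in share with age: IMN2-like cells were 583 of cluster 2 and 421 of the shallower cluster 10 at P5, against 433 and 51 at 12w. Within cluster 2 alone Cbx3 was at 2.26-fold (2.02 to 2.53) and 2.58-fold (2.11 to 3.13), and within cluster 10 at 1.90-fold (1.251 to 2.80) and 3.86-fold (2.15 to 6.49). The 2 clusters of NPC-like cells gave 2.01-fold (1.82 to 2.21) and 2.63-fold (2.2 to 3.12), and 2.37-fold (2.14 to 2.63) and 2.39-fold (1.93 to 2.94). Values within clusters were added after the data were seen.

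In the other neural classes Cbx3 was not called, and in NSC-like cells its 12w interval includes 1. IMN1-like cells were at 1.79-fold (1.58 to 2.04) at 12w and 2.29-fold (1.82 to 2.85) in the 33 cells at 24w, and AS-like cells at 1.73-fold (1.53 to 1.94) and 1.78-fold (1.43 to 2.2). Within the AS-like cluster with most P5 cells the ratios were smaller, at 1.19-fold (0.95 to 1.46) and 1.47-fold (1.02 to 2.05). AS-like clusters also changed in share with age: cluster 11 of the neural clustering held 202 of 4095 AS-like cells at P5 and 95 of 398 at 12w. NSC-like cells were at 1.04-fold (0.90 to 1.2) and 1.28-fold (1.0 to 1.6), and the difference between classes was not tested. Outside the neural classes, VSMC-like cells were at 1.52-fold (1.17 to 1.99) and 1.77-fold (1.35 to 2.34), PC-like cells at 1.18-fold (1.03 to 1.34) and 1.40-fold (1.23 to 1.60), and the 32 OPC-like cells at 12w at 2.95-fold (2.10 to 4.05). Only 9 OPC-like cells were found at 24w, with 162.5 CPM (44.3 to 416) from 4 UMIs, against 156.8 CPM at P5. IN-like cells, from 43 cells at P5 and 70 at 12w, were at 1.04-fold (0.78 to 1.37), the 34 oligodendrocyte-like (OL) cells at 12w at 2.39-fold (1.84 to 3.09), and ependymal-like (EPEN) cells at 1.27-fold (0.81 to 1.93) in 34 cells at 12w and 1.27-fold (0.94 to 1.70) at 24w. Free RNA predicted from barcodes with 10 to 100 UMIs made up 2.64% of the Cbx3 level in NPC-like cells at 12w, and the calls were the same when it was subtracted at both adult ages. Free RNA could not be read at P5, where the lowest barcode held 1495 UMIs. Cbx3 and Cbx1 may share reads with pseudogene copies, and how such reads were counted is not given in the sources used here.

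For Cbx1 the ratios to P5 lay on opposite sides of 1 in AS-like cells and in the neuronal lineage. AS-like cells had 125 CPM (120 to 130) at P5, 81.5 CPM (66.1 to 99.3) at 12w and 74.7 CPM (48.4 to 110) at 24w, or 0.65-fold (0.53 to 0.80) and 0.60-fold (0.39 to 0.89). Free RNA was predicted to make up 20.2% of the 12w and 23.1% of the 24w level in AS-like cells. IMN2-like cells had 224 CPM (209 to 240), 308 CPM (284 to 335) and 285 CPM (227 to 353), or 1.38-fold (1.24 to 1.53) and 1.27-fold (1.0 to 1.6). None of these reached 2-fold, and NSC-like cells, at 154 CPM, 118 CPM and 137 CPM, were at 0.76-fold (0.64 to 0.91) and 0.89-fold (0.65 to 1.19).

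For Cbx5, NPC-like cells had 199 CPM (190 to 208) at P5, above every other group of 50 or more cells. Its NPC-like ratios were 1.3-fold (1.17 to 1.44) at 12w and 0.93-fold (0.71 to 1.21) at 24w. NSC-like cells went from 131 CPM (121 to 140) to 118 CPM (99.4 to 138) and 78.9 CPM (52.0 to 115), with ratios of 0.90-fold (0.75 to 1.07) and 0.60-fold (0.40 to 0.89). Free RNA was predicted to make up 10.8% of the 12w and 17.8% of the 24w level in NSC-like cells. PC-like cells had 77.9 CPM (65.4 to 92.1) at P5, 160 CPM (149 to 172) at 12w and 150 CPM (138 to 163) at 24w. Their ratios of 2.05-fold (1.71 to 2.48) and 1.93-fold (1.59 to 2.34) lie just on either side of 2-fold. Different clusters held most PC-like cells at these ages: cluster 8 held 259 of 365 at P5, and clusters 1 and 5 held 1196 and 830 of 2435 at 12w. Within cluster 8, Cbx5 was at 1.41-fold (1.07 to 1.85) and 1.44-fold (1.05 to 1.96), and within cluster 1, with 96 cells and 24 UMIs at P5, at 3.22-fold (2.13 to 5.08) and 2.79-fold (1.84 to 4.42). Cbx5 was above P5 in both, with intervals that overlap between them at 24w but not at 12w.

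Suv39h1 and Suv39h2, the enzymes that trimethylate pericentric H3K9, were led at P5, among groups of 50 or more cells, by NPC-like cells and by cluster 16, a cluster with cycle genes described with the cell cycle. Cluster 16 had 35.9 CPM of Suv39h1 and 30.1 CPM of Suv39h2. The 43 IN-like cells at P5 had 37.0 CPM (16.9 to 70.2) and 32.9 CPM (14.2 to 64.8). At 12w Suv39h1 was at 40.6 CPM in IN-like and 38.5 CPM in NPC-like cells, which were not parted (1.06-fold, 0.46 to 2.13). Suv39h2 had 8.0 CPM (5.8 to 10.7, 45 UMIs) in NSC-like, 40.7 CPM (36.7 to 45.0, 383 UMIs) in NPC-like, 20.8 CPM (15.4 to 27.5) in IMN1-like, 15.7 CPM (12.0 to 20.2) in IMN2-like and 7.6 CPM (6.5 to 9.0) in AS-like cells at P5. Among these classes the level was highest in progenitors and stepped down along the neuronal lineage, with overlapping intervals for IMN1-like and IMN2-like cells. In NPC-like cells it was 45.0 CPM (35.5 to 56.3) at 12w and 34.0 CPM (17.0 to 60.9) at 24w, ratios of 1.11-fold (0.85 to 1.42) and 0.84-fold (0.41 to 1.51). AS-like cells had 145 UMIs at P5, 2 UMIs at 12w and 0 UMIs at 24w, where 3 UMIs would be 8.97 CPM. At these counts a change in AS-like cells could be read at 12w only, as 0.22-fold (0.03 to 0.80), with free RNA predicted to make up 61.8% of that adult level. Pericyte-like cells had 7.4 CPM (3.9 to 12.6), 1.7 CPM (0.7 to 3.4) and 0.83 CPM (0.17 to 2.42) at the 3 ages, from 13, 8 and 3 UMIs, and within cluster 8 the intervals of its ratios held 1.

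Suv39h1 had 14.0 CPM (11.1 to 17.5) in NSC-like, 34.3 CPM (30.7 to 38.3) in NPC-like, 12.7 CPM (8.6 to 18.2) in IMN1-like, 10.2 CPM (7.3 to 14.0) in IMN2-like and 13.9 CPM (12.2 to 15.6) in AS-like cells at P5. Unlike Suv39h2, it did not stand higher in immature neuron-like than in NSC-like cells. Its NPC-like ratios were 1.12-fold (0.85 to 1.47) at 12w and 0.72-fold (0.31 to 1.44) at 24w. Suv39h1 lies on the X chromosome and the libraries differ in sex, so age and sex cannot be told apart for it in the full libraries. In NSC-like cells, Suv39h1 was at 0.73-fold (0.37 to 1.32) and 1.04-fold (0.33 to 2.54) from 13 and 5 UMIs, and Suv39h2 at 0.49-fold (0.15 to 1.24) and 1.10-fold (0.22 to 3.42) from 5 and 3 UMIs, so that none was parted from P5.

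Setdb1 places trimethylation together with Trim28. Its level at P5 was 21.1 CPM (17.5 to 25.3) in NSC-like, 19.8 CPM (17.0 to 22.8) in NPC-like, 19.4 CPM (15.2 to 24.3) in IMN2-like and 18.8 CPM (16.9 to 20.9) in AS-like cells, whose intervals all overlap. IMN1-like cells were at 11.5 CPM (7.6 to 16.7), which of these overlaps IMN2-like cells alone, and at 0.54-fold (0.34 to 0.83) of NSC-like cells. At 12w NPC-like cells were at 23.1 CPM (16.4 to 31.6) and NSC-like cells at 11.04 CPM (6.0 to 18.5). In NSC-like cells it was at 0.52-fold (0.28 to 0.91) at 12w and 0.69-fold (0.22 to 1.66) at 24w, from 14 and 5 UMIs.

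Trim28 was higher in NPC-like and immature neuron-like than in NSC-like and AS-like cells. At P5 it had 77.5 CPM (70.4 to 85.1) in NSC-like, 206 CPM (197 to 215) in NPC-like, 191 CPM (173 to 209) in IMN1-like, 160 CPM (147 to 173) in IMN2-like and 58.4 CPM (55.0 to 61.9) in AS-like cells. Unlike Suv39h1 it was also high in immature neuron-like cells. The 43 IN-like cells at P5 had 255 CPM (195 to 327). Cluster 16, at 154 CPM, was not parted from IMN2-like cells (1.04-fold, 0.90 to 1.19), and EPEN-like and OL-like cells had 123 CPM and 108 CPM. The NPC-like level was 305 CPM (279 to 332) at 12w and 343 CPM (282 to 413) at 24w, or 1.48-fold (1.34 to 1.63) and 1.67-fold (1.36 to 2.02), while NSC-like ratios were 0.98-fold (0.78 to 1.22) and 0.94-fold (0.60 to 1.41). No Trim28 ratio in the 5 neural classes reached 2-fold.

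Ehmt1 and Ehmt2 are partner subunits of the dimethyltransferase. At P5 cluster 23, which has no class name, was first of the groups with 50 or more cells, though not parted from the next. It had 67.9 CPM of Ehmt1 and 66.2 CPM of Ehmt2. The 43 IN-like cells at P5 had 78.1 CPM (47.0 to 122) of Ehmt1 and 90.4 CPM (56.7 to 137) of Ehmt2. Among the neural classes, Ehmt1 had 34.2 CPM (29.6 to 39.4) in NSC-like, 46.3 CPM (42.1 to 50.9) in NPC-like, 56.9 CPM (47.7 to 67.4) in IMN1-like, 59.2 CPM (51.7 to 67.5) in IMN2-like and 32.5 CPM (30.0 to 35.2) in AS-like cells at P5. Ehmt2 had 37.1 CPM (32.2 to 42.4), 52.0 CPM (47.5 to 56.9), 50.1 CPM (41.5 to 60.0), 47.9 CPM (41.3 to 55.4) and 36.1 CPM (33.5 to 38.9) in the same order of classes. Ehmt1 was lower in NSC-like and AS-like than in both immature neuron-like classes. The Ehmt2 intervals of NPC-like and both immature neuron-like classes overlapped, with AS-like cells below them. Ehmt2 was at 1.48-fold (1.21 to 1.80) and 1.49-fold (0.95 to 2.22) of P5 in NPC-like cells, and at 1.5-fold (1.12 to 2.00) and 2.38-fold (1.45 to 3.74) in IMN1-like cells, of which only 33 were found at 24w.

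No member was called lower with age in the 5 neural classes, where the share of all genes called lower was 4.05% (NSC-like), 5.08% (AS-like), 3.09% (NPC-like), 1.59% (IMN1-like) and 2.42% (IMN2-like). Neither was any of the 9 called higher in the classes NSC-like, AS-like and IMN1-like, where 3%, 3.22% and 1.38% of genes were. A higher call asks for 20 UMIs at both adult ages, and a gene with fewer at either could not be called higher at any ratio. At 24w this held for Suv39h1, Suv39h2, Setdb1 and Ehmt1 in each of these classes, and for Ehmt2 in NSC-like and AS-like cells. Of 36 other genes of the pathway, 28 to 34 had enough UMIs to be read in each neural class, and none of these was called higher. Called lower were 2, both in NSC-like cells: Cdyl2, a chromodomain protein, at 0.38-fold and 0.28-fold, and Uhrf1, which binds methylated H3K9 and hemimethylated DNA, at 0.27-fold and 0.33-fold. They had 58 and 50 UMIs at P5 and 1 UMI each at 24w.

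**Figure D2:**
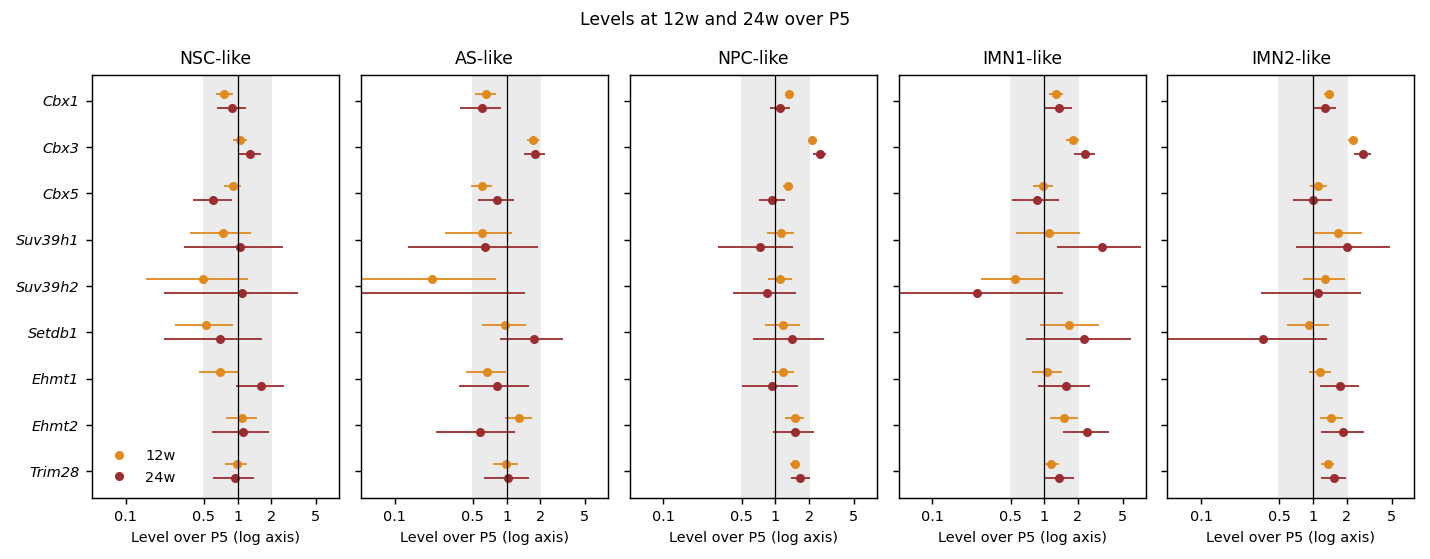
Ratio of the level at 12w and at 24w to P5 (log axis) for each gene in the 5 neural classes, with exact 95% intervals that cover counting error only and are cut off at the ends of the axis. The gray band spans less than 2-fold; Cbx3 lies above it at both ages in NPC-like and IMN2-like cells and at 24w in IMN1-like cells.

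The cell cycle was read from UMIs of 52 cycle genes, which hold none of the 9, after each cell was thinned to 1000 UMIs. Cells with 8 or more such UMIs were taken as cycling and cells with 3 or fewer as not, and those between were left out. NPC-like cells gave 813 against 130 cells at P5 and 155 against 35 at 12w. Among P5 cells, 2 clusters without a class name also held enough of both: cluster 16, led by Pdgfra and Lhfpl3 with Top2a and Mki67 (230 against 63), and cluster 21, led by Col4a1 and Tagln2 with cycle genes (85 against 53). The markers that name NPC-like cells include cycle genes, and cells of 1 library are no replicates, so no test was applied.

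Suv39h2 had the widest difference. In NPC-like cells at P5 it was at 47.1 CPM in cycling and 18.1 CPM in non-cycling cells, 2.60-fold (1.60 to 4.51), and at 12w at 57.0 CPM and 4.59 CPM, 12.4-fold (2.15 to 498), from 66 UMIs against 1. Cluster 16 gave 2.54-fold (0.80 to 13.0), and cluster 21 gave 2.41-fold (0.78 to 9.83) from 17 UMIs against 4, or 0.30 on the log2 scale in place of 1.27 when 15 cycle UMIs were asked of cycling cells. Suv39h1 was at 38.6 CPM and 25.6 CPM at P5, 1.51-fold (0.99 to 2.40), and at 44.0 CPM and 9.18 CPM at 12w, 4.80-fold (1.26 to 40.7) from 51 UMIs against 2. Cluster 21 gave 1.70-fold (0.65 to 5.23) for Suv39h1, or 0.13 on the log2 scale in place of 0.76 with that stricter limit. For both writers the direction was the same in all 4 groups of cells, as it was for Cbx1, Cbx3, Cbx5 and Trim28. Trim28 was at 1.32-fold (1.12 to 1.56) in NPC-like cells at P5 and 1.36-fold (1.02 to 1.84) at 12w. The share of all genes with the same direction in all 4 groups was not read.

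Among the HP1 genes, Cbx3 was 1.72-fold (1.47 to 2.02) higher in cycling NPC-like cells at P5, at 319 CPM against 186 CPM, and 1.71-fold higher in cluster 21. In NPC-like cells at 12w it was at 690 CPM against 491 CPM, so non-cycling 12w cells stood above cycling P5 cells. The higher 12w level of Cbx3 was thus seen on both sides of the cycle split. At 24w only 6 NPC-like cells were non-cycling, and the split was not read. Cbx1 was at 297 CPM against 206 CPM, and Cbx5 at 210 CPM against 175 CPM, at P5, both under 1.5-fold. Ehmt1 in NPC-like cells at P5 was at 43.4 CPM against 59.7 CPM (0.73-fold, 0.54 to 0.99), and Setdb1 was at 18.6 CPM against 24.5 CPM.

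With a threshold of 1.5-fold and 20 UMIs where higher, 3 of 9 members were called higher in cycling NPC-like cells at P5 (Cbx3, Suv39h1 and Suv39h2), where 12% of all genes were. At 12w 2 of 9 were called (Suv39h1 and Suv39h2), where 21.9% were. Cluster 16 gave 2 of 9 against 19.5%, Suv39h2 and Suv39h1 (1.55-fold, 0.70 to 4.07), both with intervals that hold 1. Cluster 21 gave 4 of the 6 with enough UMIs against 17.6%: Cbx1 (1.81-fold, 1.35 to 2.47), Cbx3, Ehmt1 (1.60-fold, 0.78 to 3.52) and Ehmt2 (2.02-fold, 0.85 to 5.53). The calls of Ehmt1 and Ehmt2 there ended when 15 cycle UMIs were asked, and those of Cbx3 and Ehmt1 with doublets kept. None was called lower, where 4.68% of genes were in NPC-like cells at P5 and 5.09% at 12w. The shares were 1.94% in cluster 16 and 12.7% in cluster 21. A lower call needs 20 UMIs in the non-cycling cells, and members with fewer could not be called lower at any ratio. Ehmt2 in cluster 16, with 15 UMIs there, was at 0.60-fold (0.32 to 1.17). Of the 34 other pathway genes that could be read in NPC-like cells at P5, 6 were called higher, among them Incenp, a chromosomal passenger protein (6.13-fold), and Lbr, an inner nuclear membrane protein that binds HP1 (2.81-fold), and Kdm7a, an H3K9 demethylase, was called lower (0.33-fold). In NPC-like cells at 12w 13 of 20 were called higher and none lower, in cluster 16 10 of 21 higher and 1 lower, and in cluster 21 3 of 12 higher.

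**Figure D3:**
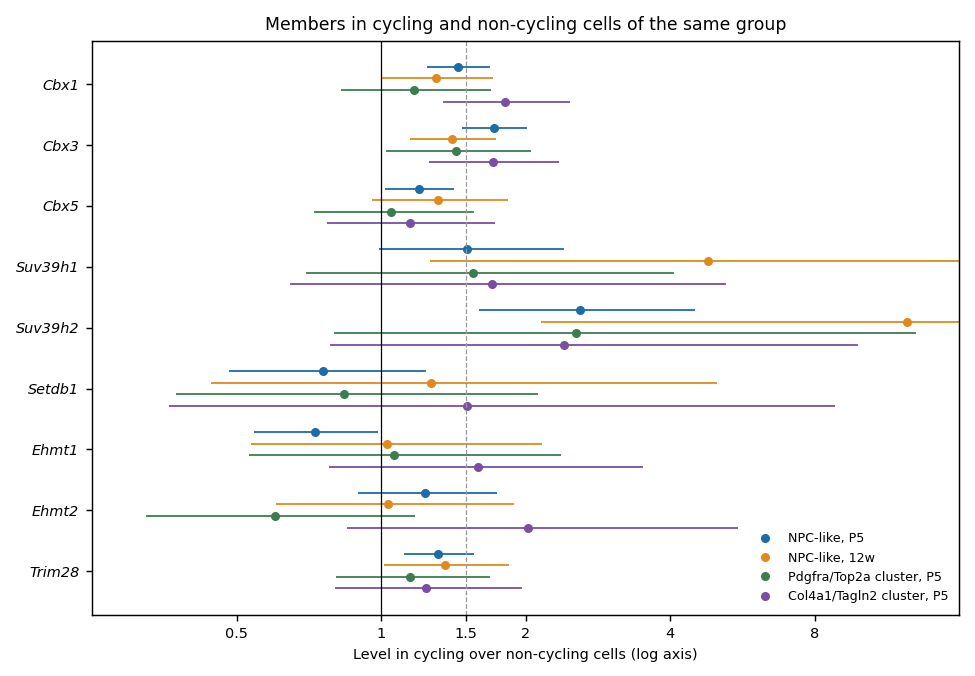
Ratio of the level in cycling to non-cycling cells (log axis) for each gene in NPC-like cells at P5 and 12w and in clusters 16 and 21 at P5, with exact 95% intervals for counting error, cut off at the axis end. The dashed line marks 1.5-fold, and Suv39h2 lies above it in all 4 groups, though not past the UMI minimum in cluster 21, and its intervals in clusters 16 and 21 hold 1.

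NPC-like cells were made of an S phase-led cluster and a G2/M-led cluster, between which the writers differed in direction. At P5 Setdb1 was at 0.53-fold (0.39 to 0.73) and Ehmt1 at 0.76-fold (0.62 to 0.92) in the G2/M-led relative to the S-led cluster, while Suv39h2 was at 1.36-fold (1.10 to 1.67) and Cbx3 at 1.15-fold (1.07 to 1.24). The other HP1 genes were at 1.09-fold (1.01 to 1.18) for Cbx1 and 0.89-fold (0.81 to 0.97) for Cbx5, and Suv39h1 was at 1.0-fold (0.80 to 1.26). The 12w library gave 0.45-fold (0.18 to 1.01) for Setdb1, 1.76-fold (1.09 to 2.83) for Suv39h2 and 1.36-fold (1.2 to 1.54) for Cbx3. These clusters were formed without the 9 genes but from genes that may move with them, so the ratios are a description.

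Across 43 points of class and age, the genes whose log2 levels ran most like each member were read from their correlation. Suv39h2 was closest to Dctpp1 (r = 0.90), Dut (0.90) and Ezh2 (0.88), and Suv39h1 to Cep57 (0.77), Gins1 (0.75) and Wdhd1 (0.73). Trim28 was closest to Sfpq (0.92) and Ccar1 (0.91), Cbx3 to U2af1 (0.86), Ewsr1 (0.82) and Nutf2 (0.82), and Cbx1 to Ubald2 (0.88), Nono (0.85) and Rpl15 (0.84). Cbx5 was closest to D030056L22Rik (0.70), Rfc4 (0.68) and Dtl (0.68), Setdb1 to Klhl32 (0.69), Ncoa1 (0.67) and Cmip (0.66), Ehmt1 to Exog (0.80), Zfp142 (0.77) and Rnf219 (0.76), and Ehmt2 to Rnmt (0.79), Ccar1 (0.79) and Aldh18a1 (0.78). With the summed level of the 52 cycle genes, r was 0.76 for Suv39h2, 0.58 for Suv39h1, 0.57 for Trim28, 0.49 for Cbx5, 0.47 for Cbx1, 0.28 for Ehmt2, 0.26 for Setdb1, 0.16 for Ehmt1 and 0.09 for Cbx3. The points share libraries and classes and are no independent samples, so these values are a description.

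The RNA-seq comparison asks how these genes differ in cultured NSCs when Setd8 is reduced. The deposited values are TPM (a share of transcripts that accounts for gene length) in 4 libraries, whose recovered reads number 20.04 to 21.5 times 1000000, labelled Ctrl_3, Setd8KD_1, Setd8KD_2 and Setd8KD_3. The files under the labels Ctrl_1 and Ctrl_2 hold gene symbols and gene lengths. Setd8 stood at 154 TPM, 143 TPM, 143 TPM and 36.4 TPM in this order of labels, lower by 1.98 on the log2(TPM + 1) scale in the last (adjusted p = 0.000113, limma). The libraries labelled Setd8KD_1 and Setd8KD_2 thus go against their labels. A table of epigenetic regulators in the study lists the values of these and of the library labelled Ctrl_3 under control headings, and those of the library labelled Setd8KD_3 under a knockdown heading. The grouping follows these headings, and the comparison is of 3 libraries with 1. Nothing says that the 3 came from separate cultures, so p-values measure the spread between these libraries alone, and the library labelled Setd8KD_3 is assumed to vary like them.

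The order of the 9 genes in the libraries under control headings, per length, was Trim28 at 410 ± 13 TPM (SD, n = 3), Ehmt2 at 155 ± 6.1 TPM, Cbx5 at 125 ± 6.0 TPM, Cbx1 at 110 ± 3.5 TPM, Suv39h1 at 67.2 ± 3.6 TPM, Setdb1 at 47.6 ± 1.1 TPM, Cbx3 at 35.8 ± 2.3 TPM, Ehmt1 at 34.9 ± 0.48 TPM and Suv39h2 at 16.02 ± 0.33 TPM. Only Cbx3 and Ehmt1 overlapped in the values of their libraries.

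In the library with reduced Setd8, 7 of the 9 genes were lower, 1 was higher and 1 did not pass the test (limma, Benjamini-Hochberg adjusted over 12703 genes). Over all genes, 21.7% were called lower and 20% higher. The HP1 genes fell together. Cbx1 was at 106 TPM, 113 TPM and 110 TPM in the libraries labelled Ctrl_3, Setd8KD_1 and Setd8KD_2 and at 64.2 TPM in the library labelled Setd8KD_3, and fell by 0.77 ± 0.06 (SE) on the log2(TPM + 1) scale (adjusted p = 0.000369, limma). Cbx5 was at 129 TPM, 128 TPM and 118 TPM against 80.0 TPM and fell by 0.63 ± 0.07 (adjusted p = 0.000912, limma). Cbx3 was at 37.3 TPM, 37.1 TPM and 33.2 TPM against 26.5 TPM and fell by 0.42 ± 0.09 (adjusted p = 0.0115, limma). In each the lone library lay below all 3 others, and the widest difference between 2 libraries under control headings over all 9 genes was 0.16, for Cbx3.

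The enzymes of trimethylation also fell. Suv39h2, at 16.3 TPM, 16.1 TPM and 15.7 TPM against 8.84 TPM, had the largest change of the 9 and fell by 0.79 ± 0.09 (adjusted p = 0.00110, limma). Suv39h1, at 70.2 TPM, 68.1 TPM and 63.3 TPM against 43.3 TPM, fell by 0.62 ± 0.08 (adjusted p = 0.00146, limma). Setdb1 changed less, at 47.7 TPM, 48.6 TPM and 46.4 TPM against 38.1 TPM, and fell by 0.31 ± 0.07 (adjusted p = 0.0117, limma). Trim28 was at 402 TPM, 402 TPM and 425 TPM against 301 TPM and fell by 0.44 ± 0.06 (adjusted p = 0.00146, limma). All 4 lay below every library under a control heading, as did 8 of the 9 genes, Ehmt1 included, and 40.8% of all genes tested.

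Of the dimethyltransferase subunits, Ehmt2 was called higher and Ehmt1 did not pass the test. Ehmt2 lay above every library under a control heading, as did 41.3% of all genes tested. Ehmt2 was at 152 TPM, 152 TPM and 162 TPM against 179 TPM, above all 3 others, and rose by 0.21 ± 0.06 (adjusted p = 0.0373, limma). Ehmt1 was at 34.4 TPM, 35.3 TPM and 35.1 TPM against 34.1 TPM, a difference of -0.03 ± 0.07 (adjusted p = 0.729, limma). Without the library labelled Setd8KD_1 the adjusted p in limma was 0.112 for Ehmt2 and 0.0509 for Setdb1, which ended both calls, while the differences stayed near their size, at 0.19 ± 0.08 and -0.30 ± 0.09 (over all alternatives 0.0282 to 0.9999 and 0.00322 to 0.9999). With no filter on low values, 3 genes were called lower (Cbx1, Suv39h2 and Setdb1) and none higher, and with libraries grouped by their labels none was called.

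The median log2 change was -0.44 over the 9 genes and 0.00 over all genes tested. Of the 9, 4 were at least 1.5-fold lower (Cbx1, Cbx5, Suv39h1 and Suv39h2), as were 8.80% of all genes. Cycle genes moved with them: 52 of 52 were called lower, with a median of -0.998, and the part of this in the members' change was not tested. In bulk cells, fewer cells of a type and less RNA per cell cannot be told apart. Of 36 other pathway genes 34 were tested, of which 13 were called lower and 3 higher, with a median of -0.08. The largest calls were Chaf1b and Chaf1a, subunits of the CAF-1 histone chaperone, which fell by 1.04 and 0.84, Incenp, which fell by 0.84, Uhrf1, which fell by 0.82, the maintenance DNA methyltransferase Dnmt1, which fell by 0.74, and the demethylase Kdm7a, which rose by 0.62.

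**Figure D4:**
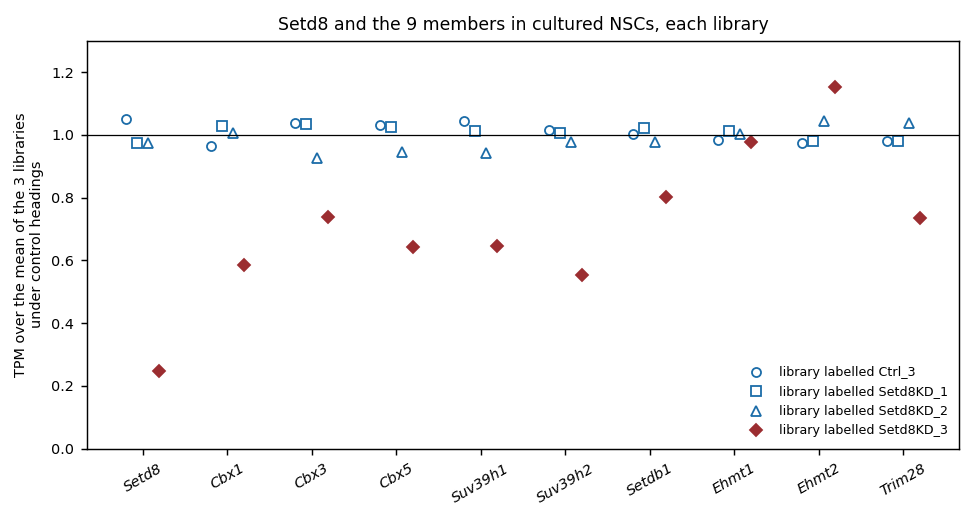
TPM of Setd8 and the 9 genes in each of the 4 libraries divided by the mean of the 3 libraries under control headings, 1 point per library by its label. The library labelled Setd8KD_3 lies at 0.25 for Setd8, between 0.55 and 0.80 for 7 of the 9 genes, at 0.98 for Ehmt1 and at 1.15 for Ehmt2.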

How the data were processed

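The scRNA-seq values are raw UMI counts per gene and barcode that the authors made with Cell Ranger on mm10. The scATAC-seq peak regions and counts were deposited by the authors in the same build, and only peak positions were used. The RNA-seq values were deposited by the authors as TPM after alignment with STAR to mm10. Per the labels' processing notes, the tools include Cell Ranger 2.2.0, Seurat 4.1.0 and DESeq2. The members and gene lists were chosen with earlier results of these data known.

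A barcode was taken as a cell from 1000 UMIs and 500 genes upwards, if no more than 10% of its UMIs were mitochondrial. Scrublet (scanpy 1.11.5), run on each library, marked 752, 85 and 2 cells as doublets, which were removed. Libraries were integrated and clustered with Seurat 5.3.0 (2000 variable genes, 30 dimensions, resolution 0.8), and the 9 genes took no part in clustering or naming. A cluster took a name if its marker score was at least 0.5 with at least 3 markers raised. Its 10 leading genes also had to hold more markers of that class than of any other. In a second clustering, of neural-like cells alone, leading genes without markers of any class also passed. Clusters 16, 21 and 23 reached the score and the number of raised markers, and were left without a name by the leading genes. Clusters were rebuilt here and may differ from those of the study. Among AS-like cells, 1 cluster was led by haemoglobin genes. Barcodes shared between libraries (87, 59 and 26) were near the numbers that drawing from the barcode list gives (92.4, 49.0 and 20.0). Classes were ranked by level where they held at least 50 cells at an age, and ratios to P5 were also read from fewer, with 43 NPC-like and 33 IMN1-like cells at 24w behind every 24w value of these classes. Where 0 UMIs were counted, a floor of 3 UMIs per class was used. CPM of other genes' patterns were compared as log2(CPM + 5) over points with at least 100000 UMIs.

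Reads recovered from TPM and gene lengths were whole numbers, within 0.05 reads, for 100% of the genes with 1 to 1000 reads, and TPM of at least 1 on average were required. The grouping of the RNA-seq libraries came from the headings of a table of the study, and that by the labels was an alternative. Fits used limma 3.58.1 with a trend on log2(TPM + 1), with edgeR 4.0.16 and DESeq2 1.42.0 on recovered reads as alternatives, at an adjusted p threshold of 0.05. The rules of size and the limma fit were tested on simulated data. All 9 members, up to 6 pathway genes with the largest called change and the 3 genes of most similar pattern per member were named, except 1 gene that is not reported here. Promoter sequences are RefSeq's for GRCm38.p6, with all 9 members matched. Other samples of the series (bulk ATAC-seq and H4K20me1 ChIP-seq) were not analysed here.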

Additional observations from a re-analysis of the deposited data

Results flagged for a closer look

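For 7 genes, the ratio to P5 lay below 1 at both adult ages in at least 1 neural class and above 1 at both in at least another. None of these differences between classes was tested, since there is 1 library per age, and several rest on intervals that hold 1. The share of all genes with such mixed signs was not read, so the count is not shown to be particular to the members. Cbx1 lay below P5 in NSC-like and AS-like cells and above it in NPC-like, IMN1-like and IMN2-like cells, with its highest 12w ratio in IMN2-like cells (1.38-fold) and its lowest in AS-like cells (0.65-fold). Trim28 lay below P5 in NSC-like cells (0.98-fold at 12w, with 1.26-fold, 0.95 to 1.67, in one of their clusters and 0.66-fold, 0.43 to 0.98, in the other) and above it in NPC-like cells (1.48-fold) and both immature neuron-like classes. Cbx5 was at 1.11-fold of P5 at 12w and at 1.0-fold at 24w in IMN2-like cells, so that the second age shows no difference, and below P5 in NSC-like, AS-like and IMN1-like cells. Suv39h1 was at 1.68-fold in IMN2-like and 0.60-fold in AS-like cells, and Suv39h2 at 1.26-fold in IMN2-like and 0.22-fold in AS-like cells. Setdb1 was at 1.68-fold in IMN1-like and 0.52-fold in NSC-like cells at 12w. Ehmt1 was at 1.16-fold at 12w and 1.74-fold at 24w in IMN2-like cells, and at 0.66-fold and 0.83-fold in AS-like cells.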

How the results depend on the processing

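Of the 7 genes called lower in the library with reduced Setd8, 3 were called with no filter on low values and 0 with libraries grouped by their labels, where limma gave 86 of 12703 genes an unadjusted p under 0.05 and none of them was a member. Leaving out a library under a control heading gave 6 to 7. The 1 higher call became 0 with no filter and 0 with the labels' grouping, and 0 to 1 when a library was left out. The lowest value of each came without the library labelled Setd8KD_1, which ended the calls of Setdb1 and Ehmt2. Ehmt1 changed sign with the labels' grouping (0.0175). Over all genes, no filter called 1196 higher and 1038 lower in place of 2545 and 2755. No paired analysis was possible because only 1 replicate number is shared by the groups whose files hold values. The 2 age calls became 1 with scaling to the median log2 ratio and 1 with P5 cells of like sex (Cbx3 in IMN2-like cells in both). They became 5 at 1.5-fold. Over all genes, 1.5-fold called 720 of 12698 higher in AS-like and 402 of 11556 in NPC-like cells. It called 270 of 8575 higher in IMN1-like and 377 of 9983 in IMN2-like cells. Called lower at 1.5-fold were 1393 of the 12698 genes in AS-like and 439 of the 8575 in IMN1-like cells. Calls of lower with age went from 0 to 1 with scaling to the median (Suv39h2 in IMN1-like cells) and 3 at 1.5-fold (Cbx1 and Suv39h1 in AS-like cells, Suv39h2 in IMN1-like cells), and to 1 within the cluster of each class with most P5 cells (Suv39h1 in AS-like cells, from 4 and 1 adult UMIs), an alternative chosen after the data were seen that kept both Cbx3 calls. The 11 calls of higher in cycling cells became 5 at 2-fold, 12 with a cut of 15 cycle UMIs, 9 with at least 2000 UMIs per cell, where Suv39h1 was lost in NPC-like cells at P5 and in cluster 16, and 11 with doublets kept, where Suv39h1 and Suv39h2 took the place of Cbx3 and Ehmt1 in cluster 21. The cut of 15 lost Suv39h2 in cluster 16 (log2 ratio 1.14) and Ehmt2 (0.90) and Ehmt1 (0.57) in cluster 21, the first pair by the UMI minimum, in fewer cells, and 0 lower calls became 1 with a cut of 15 cycle UMIs (Setdb1 in NPC-like cells at P5). Of the single ratios under these alternatives, 532 of the age ratios and 144 of the cycling ratios kept their value within counting error and 8 age ratios moved. Of the levels, 456 kept theirs and 3 moved. The alternatives reuse many of the same UMIs and counting intervals can be wide, so these numbers are no measure of robustness. Suv39h2 in cluster 21, at a log2 ratio of 1.27 and at 0.30 with the cut of 15, counts as kept. Adult levels of Suv39h1, Suv39h2 and Setdb1 rest on few UMIs, which limits what could be seen.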

Other observations

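The genes that start beside Cbx3 and Cbx5 on the opposite strand were read after the members' values had been seen. Hnrnpa2b1, the neighbour of Cbx3 and an RNA-binding protein, was 1.22-fold to 1.76-fold of P5 at both adult ages in all 5 neural classes. In NSC-like cells, where Cbx3 was at 1.04-fold and 1.28-fold, Hnrnpa2b1 was at 1.76-fold (1.63 to 1.89) and 1.53-fold (1.33 to 1.75), and in IMN2-like cells, where Cbx3 was at 2.25-fold and 2.77-fold, it was at 1.42-fold (1.33 to 1.51) and 1.52-fold (1.33 to 1.73). The pair therefore did not keep 1 ratio over the classes. Hnrnpa1, the neighbour of Cbx5, was at 0.51-fold (0.45 to 0.59) and 0.28-fold (0.20 to 0.39) in NSC-like cells, 0.45-fold (0.42 to 0.49) and 0.37-fold (0.33 to 0.40) in PC-like cells and 1.18-fold (1.13 to 1.24) and 1.13-fold (1.03 to 1.24) in NPC-like cells. In PC-like cells Cbx5 and its neighbour stood on opposite sides of P5, also within cluster 8, which held most PC-like cells at P5 but not in adults, where Hnrnpa1 was at 0.45-fold (0.38 to 0.52) and 0.34-fold (0.28 to 0.42).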
